A study of Homo sapiens with 6 samples.

Results

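THYN1, CAST, EIF4A2 and GSK3B are the 4 genes whose cassette exons the study used as exons known to depend on U2AF65. They were taken by gene symbol from a table of 57150 genes, each symbol had 1 row, and all 4 had a mean FPKM (fragment counts scaled to transcript length and sequencing depth) of at least 1, as did 13741 genes in all. Per the labels, the RNA came from K562, an established human erythroleukemia cell line, in 3 pools transfected with siRNAs against both αCP1 and αCP2 and in 3 pools transfected with control siRNAs, and was harvested 72 h after transfection. The αCPs are poly(C)-binding proteins encoded by PCBP1 and PCBP2. The table gives 1 FPKM and 1 estimated count per gene for each group, in 2 columns labelled KD and CTRL, which are named here by those labels alone. No spread between pools could therefore be computed, the differences have no replicate check, and no test was run.

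U2AF65, encoded by U2AF2, is the larger subunit of the factor that recognises the 3′ end of most introns. It binds the U-rich polypyrimidine tract before the splice acceptor, and through it the U2 snRNP is brought to the branch site. A cassette exon can be included or skipped, and the strength of its own tract and that of the competing acceptors both bear on the choice. By the study's RT-PCR, U2AF65 depletion lowered inclusion of the THYN1 and CAST exons and raised that of the EIF4A2 and GSK3B exons. The study reports little or no change of these exons when both αCPs were depleted. The 4 host genes have unlike roles. THYN1 encodes a small nuclear protein, thymocyte nuclear protein 1. CAST encodes calpastatin, the inhibitor of the calcium-dependent calpain proteases. EIF4A2 encodes an RNA helicase of translation initiation, a close paralog of eIF4A1. GSK3B encodes glycogen synthase kinase 3 beta, which phosphorylates glycogen synthase and marks β-catenin for degradation.

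The labels of the columns were checked first, on the targeted genes and on the cell type. PCBP1 had an FPKM of 184.1 in the KD column and 187.8 in the CTRL column, and PCBP2 had 530.8 and 342.4, so the targeted mRNAs were not both lower in the KD column. Of 11 erythroid markers of K562, 5 were listed at 0 in both columns, among them GATA1, TAL1 and KLF1, and the summed FPKM of the 11 was 161.6 in the KD column and 43.4 in the CTRL column, most of it from the embryonic globin gene HBE1. Of 8 epithelial markers, 4 exceeded an FPKM of 5 in each column and 3 were under 1 in both, of which KRT19 and ESRP1 were listed at 0 and CDH1 had 0.363 and 0.426. Their sums of 4370 and 3190 came almost wholly from KRT8, KRT18 and KRT7. These values do not follow the labelled cell line and treatment, and the part they play in the values below was not tested. U2AF2 itself was listed at an FPKM of 13.0 in the KD column and 85.3 in the CTRL column. The estimated counts summed to 13699340 in the KD column and 11680567 in the CTRL column. How they relate to the read pairs mapped in each pool, which the study lists in larger numbers, is not given in the sources used here, so the counting intervals hold only as far as the deposited counts are the fragments counted.

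The exons themselves were located first, since the results concern their hosts. The study numbers them as exon 7 of THYN1, exon 8 of CAST, exon 11 of EIF4A2 and exon 9 of GSK3B, and an exon number depends on the transcript it is counted in. In the GENCODE release 44 annotation of GRCh37, 10 exons carry the given number in at least 1 transcript and are skipped by another transcript that joins the same flanking exons. THYN1 and EIF4A2 have 1 such exon each, CAST has 5 and GSK3B has 3. The 50 nt of intron that end at each of these 10 exons are printed here because they hold the tract that U2AF65 would contact, as DNA letters in the direction of transcription with matches to the U2AF65 motif in capitals.
THYN1, exon of 151 nt, chr11:134118703-134118853, minus strand: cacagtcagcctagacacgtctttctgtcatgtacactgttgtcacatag
CAST, exon of 57 nt, chr5:96064857-96064913, plus strand: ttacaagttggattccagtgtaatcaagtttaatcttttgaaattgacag
CAST, exon of 81 nt, chr5:96066484-96066564, plus strand: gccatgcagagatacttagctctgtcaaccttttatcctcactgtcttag
CAST, exon of 69 nt, chr5:96071876-96071944, plus strand: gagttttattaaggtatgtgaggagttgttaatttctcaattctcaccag
CAST, exon of 39 nt, chr5:96076449-96076487, plus strand: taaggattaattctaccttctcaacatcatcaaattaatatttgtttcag
CAST, exon of 84 nt, chr5:96082046-96082129, plus strand: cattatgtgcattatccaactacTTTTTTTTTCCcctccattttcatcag
EIF4A2, exon of 107 nt, chr3:186506099-186506205, plus strand: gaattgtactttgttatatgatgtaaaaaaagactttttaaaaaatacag
GSK3B, exon of 39 nt, chr3:119585437-119585475, minus strand: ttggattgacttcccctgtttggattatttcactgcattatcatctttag
GSK3B, exon of 187 nt, chr3:119582266-119582452, minus strand: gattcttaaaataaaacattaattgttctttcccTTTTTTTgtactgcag
GSK3B, exon of 99 nt, chr3:119562102-119562200, minus strand: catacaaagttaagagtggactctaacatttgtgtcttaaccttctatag

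All 10 introns end in AG. The U2AF65 motif of the study was searched in 4 forms, namely the form TTTTTCT, the form TTTTTTT, the form TTTTTCC and the form TTTTTTC, on the transcribed strand only and with overlapping matches allowed. Within 100 nt upstream, 3 of the 10 exons had a match, and 19.4% of the 165847 acceptors of annotated internal coding exons had one. The 10 are candidates by number and outnumber the exons the study used, so this share does not describe those exons alone. The CAST exon of 84 nt had overlapping matches in 1 run of T that ended 16 nt before the exon, and the GSK3B exon of 187 nt had a match that ended 9 nt before it. In the annotation, 34 transcripts hold that CAST exon and 2 skip it, and 16 hold that GSK3B exon and 2 skip it. For the GSK3B exon of 39 nt the match lay further up, with 68 nt between its end and the exon, outside the 50 nt shown. The exons of THYN1 and EIF4A2 and the remaining exons of CAST and GSK3B had no match to these letters in 100 nt. None of the 10 had a match to the C-rich consensus of the study in the same window, against 11.4% of all acceptors. Within 50 nt, the U2AF65 motif matched at 2 of the 10 exons and at 15.5% of all acceptors. With only the 2 forms ending in T, searched in 100 nt, it matched at 2 of the 10 and at 15.7%.

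The tracts were not alike in base content. Over the 50 nt, T made up 30% at the THYN1 exon, 36% at the EIF4A2 exon, 34% to 46% at the 5 CAST exons and 34% to 46% at the 3 GSK3B exons, where the median of all acceptors was 36%. C made up 28% at THYN1 and 6% at EIF4A2, against a median of 22%. The EIF4A2 exon therefore had the lowest C content of the 10, and its longest run of pyrimidines was 6 nt and ended 11 nt before the exon. At THYN1 the longest run of pyrimidines in the window was 7 nt and ended 24 nt before the exon. The order in T depended on the window. Over the last 30 nt alone, T made up 40% at THYN1, equal to the median of all acceptors, and 26.7% at EIF4A2, the lowest of the 10.

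**Figure D1:**
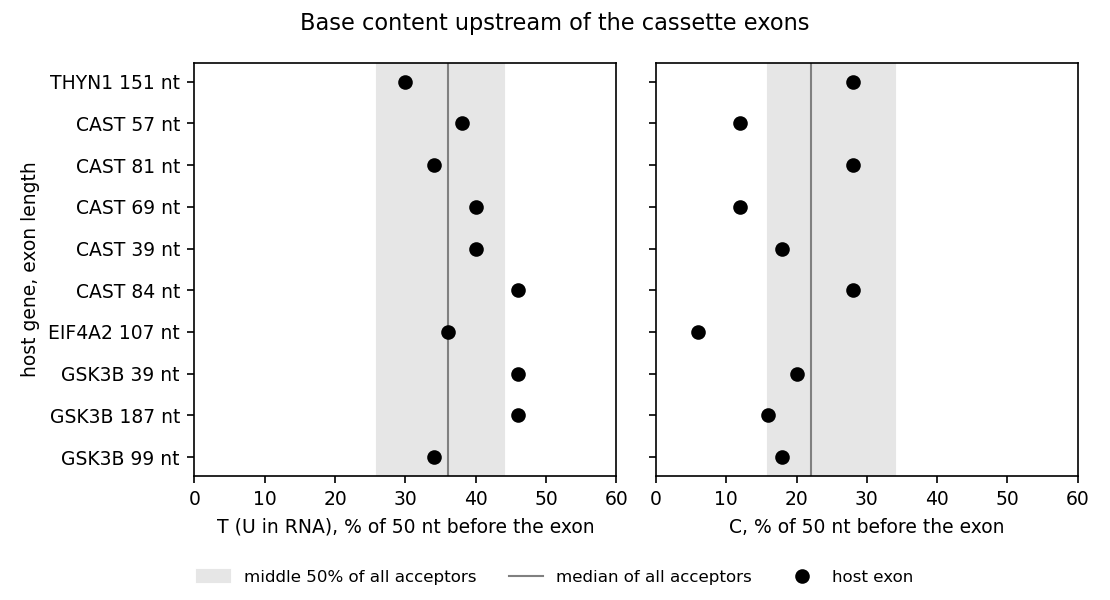
Share of T (left) and C (right), in percent of the 50 nt of intron before each of the 10 annotated cassette exons, named by host gene and exon length. Grey bands and lines give the middle 50% and the median of all acceptors of internal coding exons. The EIF4A2 exon stands at 6% C, and THYN1 at 30% T is the lowest of the 10 in T over these 50 nt. Over the last 30 nt, not drawn, EIF4A2 was the lowest in T, at 26.7%.

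Exon length also separated the hosts. All 5 CAST exons, of 39 to 84 nt, and the GSK3B exons of 39 and 99 nt have a length divisible by 3, so that inclusion keeps the frame downstream. The THYN1 exon of 151 nt, the EIF4A2 exon of 107 nt and the GSK3B exon of 187 nt do not. When the EIF4A2 exon was placed into the annotated coding transcripts that skip it, the reading frame met a stop codon at position 8 of the exon, counted from its first base. The annotation holds 1 transcript with this exon and this number and classes it as a target of nonsense-mediated decay, the pathway that degrades mRNAs with a premature stop codon. The exon is shown here with that stop codon in capitals.
EIF4A2, exon of 107 nt: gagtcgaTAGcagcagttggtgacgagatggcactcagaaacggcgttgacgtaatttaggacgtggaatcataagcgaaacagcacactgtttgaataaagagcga
The GSK3B exon of 39 nt is an insertion that left the original stop codon in use. It is shown for its size, and its 100 nt of upstream intron are shown for the position of the distant U2AF65 motif, in capitals.
GSK3B, exon of 39 nt: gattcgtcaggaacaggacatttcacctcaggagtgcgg
GSK3B, intron before the exon of 39 nt: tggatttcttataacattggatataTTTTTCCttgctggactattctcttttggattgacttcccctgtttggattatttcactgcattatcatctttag
Placed into the annotated coding transcript that skips it, the THYN1 exon of 151 nt moved the frame to another stop codon downstream. In the annotation, 3 transcripts hold this exon, all 3 with it as coding sequence, and 1 skips it. The shift is therefore relative to the skipping form only. The inclusion of these exons in the RNA was not analysed here, and every value that follows is for whole genes.

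The levels of the 4 host genes kept one order in both columns. CAST (ENSG00000153113, chr5:95860971-96115299, plus strand) had an FPKM of 104.9 in the KD column, from 3792 counts, and 128.1 in the CTRL column, from 4189 counts. THYN1 (ENSG00000151500, chr11:134118173-134123264, minus strand) had an FPKM of 98.8 from 983 counts and 115.7 from 1047 counts. EIF4A2 (ENSG00000156976, chr3:186500994-186507686, plus strand) had 86.4 from 1836 counts and 100.6 from 2374 counts. These 3 hosts thus lay between 86.4 and 128.1, each lower in FPKM in the KD column. In RNA from whole cultures, fewer cells with an mRNA and less of it per cell cannot be told apart. GSK3B (ENSG00000082701, chr3:119540168-119813841, minus strand) was the lowest, with an FPKM of 33.3 from 904 counts in the KD column and 30.8 from 993 counts in the CTRL column. By mean FPKM the hosts stood at percentiles 92.2, 91.3, 90.0 and 75.1 of the 13741 genes, in the order CAST, THYN1, EIF4A2 and GSK3B.

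Counting error sets a first limit on that order. The 95% intervals quoted for FPKM are exact Poisson intervals of the counts, carried over to FPKM, and like all intervals here they cover counting error only. In the KD column, CAST at 101.6 to 108.3 and THYN1 at 92.7 to 105.2 overlapped, so these neighbours in the order were not separated beyond counting error. In the CTRL column they did not overlap, at 124.2 to 132.0 and 108.8 to 122.9. EIF4A2, at 82.5 to 90.5 and 96.6 to 104.8, was below THYN1 in both columns without overlap. GSK3B was far below the rest, and EIF4A2 exceeded it 2.60-fold in the KD column and 3.26-fold in the CTRL column.

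**Figure D2:**
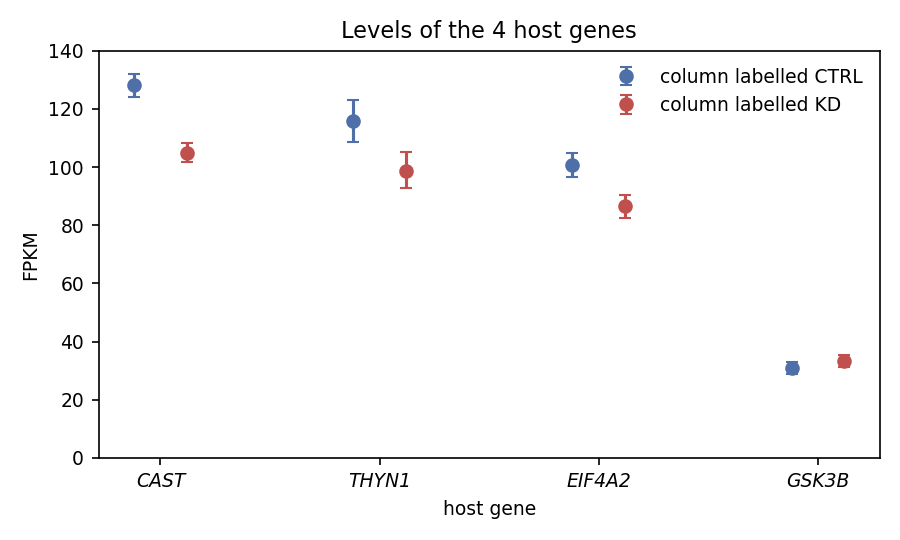
FPKM of CAST, THYN1, EIF4A2 and GSK3B in the CTRL column (blue) and the KD column (red), with 1 value per gene and column and bars for the 95% Poisson interval of its count. CAST, THYN1 and EIF4A2 lie between 86.4 and 128.1 and are each lower in the KD column, and GSK3B lies at 33.3 and 30.8.

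As log2 ratios of FPKM + 1 in the KD column over the CTRL column, the differences were small. The log2 ratio was -0.29 for CAST, -0.23 for THYN1, -0.22 for EIF4A2 and 0.11 for GSK3B. Their FPKM in the KD column was 81.9%, 85.4%, 85.9% and 108% of that in the CTRL column. The median over the 4 was -0.22, and the median over all 13741 genes was 0.01 with quartiles of -0.34 and 0.45, so each host lay within the middle 50% of the genes. By FPKM, none of the 4 reached a ratio of 2-fold or of 1.5-fold in either direction. Among all genes, 8.51% were at least 2-fold higher and 3.27% at least 2-fold lower in the KD column, and 19.6% and 12.4% passed 1.5-fold. The split between the directions depended on the scale, with 1169 genes 2-fold higher and 450 lower by FPKM and 990 higher and 1377 lower by counts divided by column totals. By ratio the hosts stood at percentiles 28.5, 32.7, 33.4 and 55.9 in the same order. U2AF2, at a log2 ratio of -2.63, was at percentile 0.189.

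The direction of the GSK3B difference depended on the measure, and its size for the other hosts did too. The estimated counts of GSK3B, 904 and 993, gave a log2 ratio of -0.14 with a 95% interval (exact binomial) of -0.27 to -0.0040, against 0.11 by FPKM. For EIF4A2 the counts gave -0.37 (-0.46 to -0.28), which is further from 0 than its FPKM ratio. The count ratios of CAST, at -0.14 (-0.21 to -0.080), and THYN1, at -0.091 (-0.22 to 0.036), were nearer to 0 than their FPKM ratios, and the interval of THYN1 included equal counts. The comparison of undivided counts was added after the values were seen. Dividing the counts by the column totals lowers every log2 count ratio by the same 0.23, the log2 ratio of the totals. The median of all genes, at 0.02 by undivided counts, thus became -0.21, a shift of -0.22 against FPKM. All 4 hosts were below 0 by undivided counts already. After division they stood at -0.37 for CAST, -0.32 for THYN1, -0.60 for EIF4A2 and -0.37 for GSK3B. On this scale EIF4A2 was at least 1.5-fold lower, as were 3672 of the 13741 genes. Relative to that median of all genes the hosts were at -0.17, -0.11, -0.39 and -0.16.

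**Figure D3:**
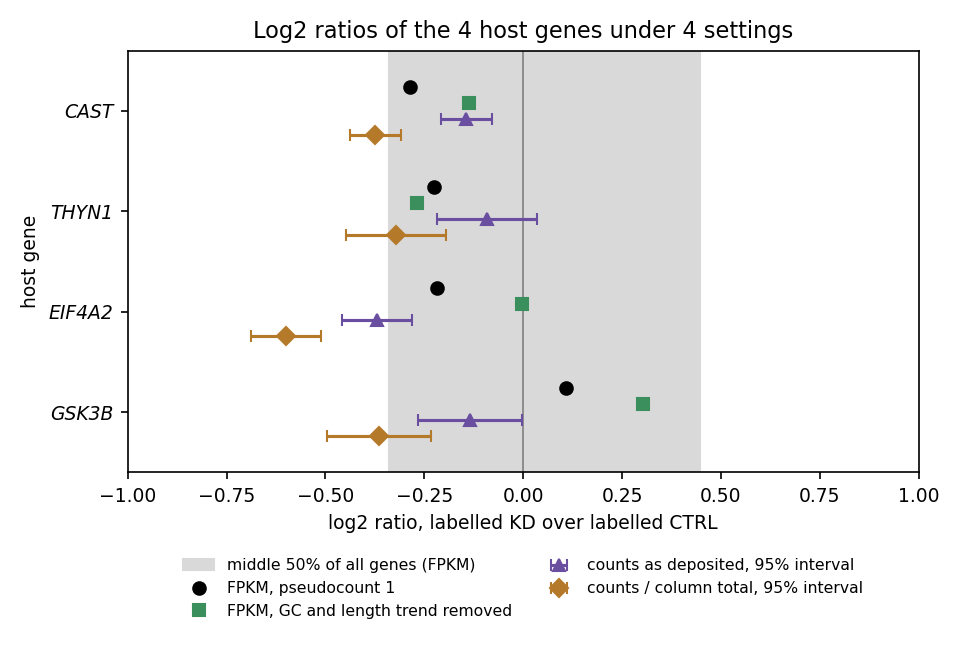
Log2 ratio of the KD column over the CTRL column for each host gene by FPKM with a pseudocount of 1, by FPKM after subtraction of the GC and length trend, by the deposited counts, and by counts divided by column totals. Bars are 95% exact binomial intervals and the grey band spans the middle 50% of all genes by FPKM. GSK3B is at 0.11 by FPKM and at -0.14 by its counts, and EIF4A2 spans -0.60 to -0.0020.

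The gap between the measures was itself measured. Each gene's count was divided by its FPKM in each column, which gives the number of fragments that 1 FPKM stands for and, on a common scale, follows the length that was assigned to the gene. For the 9534 genes with at least 100 counts in both columns, the log2 ratio of this quantity between the columns had a median of 0.00293 and quartiles of -0.05 and 0.06. THYN1 had 9.95 counts per FPKM in the KD column and 9.05 in the CTRL column, a log2 ratio of 0.14, and CAST had 36.1 and 32.7, a log2 ratio of 0.14. EIF4A2 had 21.2 and 23.6, a log2 ratio of -0.15, and GSK3B had 27.2 and 32.2, a log2 ratio of -0.25. All 4 hosts were outside the middle 50% of the genes, with THYN1 and CAST above it and EIF4A2 and GSK3B below it. They were not rare in this, since 28.8% of genes were as far from the median as THYN1 and 14.2% as far as GSK3B. The paralogs of 2 hosts were also displaced, EIF4A1 by 0.15 and GSK3A by -0.26. Whether these displacements follow the isoforms of the genes was not tested.

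**Figure D4:**
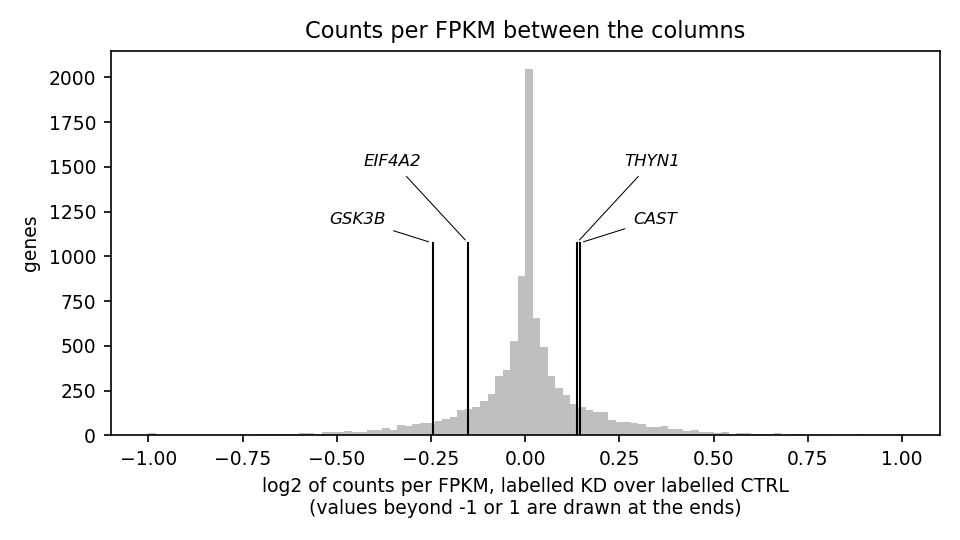
Distribution over 9534 genes of the log2 ratio, KD column over CTRL column, of estimated counts per FPKM, with the 4 host genes marked by vertical lines. Most genes lie close to 0, THYN1 and CAST lie at 0.14, EIF4A2 at -0.15 and GSK3B at -0.25.

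Base composition moved with the ratios of all genes and so touches these values. When genes were divided into 4 equal classes by the GC content of the longest annotated transcript, the class lowest in GC had a median log2 ratio of -0.24 and the class highest in GC one of 0.47. EIF4A2, at 38.7% GC, was in the lowest class, CAST and GSK3B, at 42.1% and 42.2%, in the next, and THYN1, at 48.1%, in the third. A quadratic trend in the GC content and length of the longest annotated transcript was then subtracted. THYN1 stood at -0.27 after this, CAST at -0.14, EIF4A2 at -0.0020 and GSK3B at 0.30. EIF4A2 was thus at the level of genes whose longest annotated transcript has like composition and length. For EIF4A2 that transcript is 5327 nt, and whether it is the form expressed here was not tested.

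The paralogs of EIF4A2 and GSK3B were on the other side of 0 or further above it. EIF4A1, the more abundant eIF4A helicase, had an FPKM of 817.1 in the KD column and 708.7 in the CTRL column, a log2 ratio of 0.21. EIF4A1 thus exceeded EIF4A2 9.45-fold and 7.04-fold. EIF4A3, the helicase of the exon junction complex, had 141.3 and 118.4, a log2 ratio of 0.25. GSK3A, which shares most substrates with GSK3B, had 47.1 from 844 counts and 29.2 from 627 counts, a log2 ratio of 0.67. The intervals of GSK3A and GSK3B overlapped in the CTRL column, at 27.0 to 31.6 and 28.95 to 32.8, and did not in the KD column, at 44.0 to 50.4 and 31.2 to 35.5. GSK3A stayed above GSK3B in ratio by counts, at 0.43, by counts divided by column totals, at 0.20, and with the GC and length trend removed, at 0.54. Paralogs can share reads, and how such reads were assigned was not tested.

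The partners of the host proteins were taken from fixed lists and read against the shares of all genes given above. In the eIF4F and eIF4A family, 14 of 15 genes had a mean FPKM of at least 1, EIF4A2 included. Of these, 8 were above 0 and 6 below, and their median log2 ratio was 0.17 by FPKM and -0.14 by counts divided by column totals. None was 2-fold higher and 1 was 2-fold lower, EIF4EBP2, which encodes a repressor of the cap-binding protein eIF4E, at 14.96 in the KD column and 31.0 in the CTRL column. Its log2 ratio of -1.005 was -0.87 with the trend removed. In the CCR4-NOT deadenylase complex, with which eIF4A2 is known to associate, 10 of 11 genes were below 0, as were 48.9% of all genes. The median of the 11 was -0.42 by FPKM, -0.54 by counts divided by column totals and -0.20 with the trend removed. Only CNOT6, a catalytic deadenylase subunit, passed 2-fold, with 5.82 and 12.7, a log2 ratio of -1.01 that was -0.79 with the trend removed. CNOT7, another deadenylase and the subunit of highest mean FPKM, was at 73.3 and 120.0, a log2 ratio of -0.70 that was -0.44 with the trend removed.

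Calpastatin acts on the calpains, and 7 of the 17 genes of the calpain list, CAST included, had a mean FPKM of at least 1. The most abundant was CAPNS1, the regulatory subunit of the ubiquitous calpains, at 891.8 and 865.3, a log2 ratio of 0.04 by FPKM and -0.45 with the trend removed. The catalytic subunits CAPN1 and CAPN2, which calpastatin inhibits and which were picked for that role after their values were seen, lay on opposite sides of 0. CAPN1 had an FPKM of 59.2 in the KD column and 32.9 in the CTRL column, a log2 ratio of 0.83, which was 0.32 with the trend removed. CAPN2 had 120.4 and 183.2, a log2 ratio of -0.60, which was -0.51 with the trend removed. By FPKM with no trend removed, CAST therefore exceeded CAPN1 1.77-fold and 3.90-fold, and stood at 0.871 and 0.699 of CAPN2. Higher by 2-fold were CAPN10, at 8.25 and 3.00, and SOLH (CAPN15), at 32.0 and 10.4, with log2 ratios of 1.21 and 1.54 that were 0.73 and 0.55 with the trend removed. None was 2-fold lower.

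GSK3B works in the complex that degrades β-catenin, and all 20 genes of that list, GSK3B included, had a mean FPKM of at least 1, with a median log2 ratio of 0.12 by FPKM, -0.25 by counts divided by column totals and -0.033 with the trend removed. At least 2-fold higher were 3 of them, and none was 2-fold lower. AXIN1, the scaffold that holds GSK3B in the complex, had an FPKM of 17.3 in the KD column and 4.76 in the CTRL column, a log2 ratio of 1.67. AXIN2, its paralog and a known target of β-catenin, had 4.21 and 0.932, a log2 ratio of 1.43, and LRP5, a Wnt co-receptor, had 30.5 and 11.7, a log2 ratio of 1.31. With the trend removed, AXIN1 was at 1.04, AXIN2 at 1.27 and LRP5 at 0.71. CTNNB1, which encodes β-catenin, had the highest mean FPKM of the list, at 39.3 and 62.4. Its log2 ratio was -0.65, and -0.52 with the trend removed. In the KD column alone, GSK3A at 47.1 and CSNK1A1, a kinase of the same complex, at 43.2 exceeded CTNNB1. On the insulin side of GSK3 signalling, 8 of 11 genes reached a mean FPKM of 1, and none passed 2-fold. Their median was -0.05, and -0.22 with the trend removed. They ranged from -0.86 for PIK3CA, a catalytic subunit of PI 3-kinase, to 0.80 for AKT1, a kinase that phosphorylates GSK3, and with the trend removed these stood at -0.56 and 0.29.

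**Figure D5:**
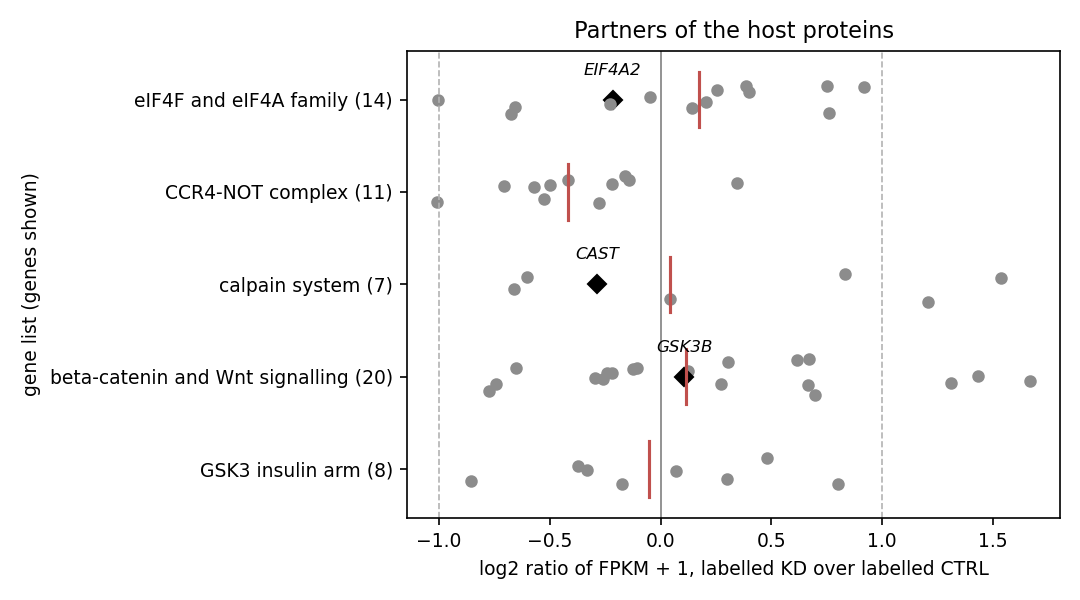
Log2 ratio of FPKM + 1, KD column over CTRL column, of each listed partner gene with a mean FPKM of at least 1, with host genes as black diamonds, list medians as red lines and 2-fold limits dashed. EIF4A2 and CAST lie below the medians of their lists, and AXIN1, AXIN2, LRP5, CAPN10 and SOLH lie beyond the upper limit.

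Other genes lie over the host genes or next to them, and whether the counting used strand is not given in the sources used here, so that reads from overlapping genes on opposite strands cannot be told apart. RFC4, a replication factor subunit on the opposite strand, overlaps the end of EIF4A2 by 18 bp and had an FPKM of 72.6 in the KD column and 130.4 in the CTRL column. ERAP1, an aminopeptidase gene on the opposite strand, overlaps CAST by 18786 bp and had little signal, at 2.11 and 2.60. ACAD8 starts next to THYN1 on the opposite strand, and had 9.97 and 11.3. GSK3B-DT, which overlaps the start of GSK3B by 100 bp, had 4.07 and 3.07. The snoRNA genes within the introns of EIF4A2 were listed at 0 in both columns. They span 69 to 178 bp, and whether the libraries capture RNA that short was not tested, so the 0 is not read as absence.

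By the distance in log2(FPKM + 1) over the 2 columns, the nearest protein-coding genes were SEPT7, UBE2E1 and TARDBP for THYN1, GLRX3, GDE1 and PSMC2 for CAST, EIF2A, CAMTA1 and CFL2 for EIF4A2, and CDCA8, MTIF3 and SMPD1 for GSK3B. Their distances were 0.01 to 0.05. Only 2 values enter each distance, and 13 to 46 genes lay within 0.1 of each host.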

How the data were processed

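The table used here was deposited for 3 pools of K562 cells with αCP1/2 siRNAs and 3 with control siRNAs. According to the study's methods and the submitters' processing notes, the authors aligned paired reads to hg19 with TopHat 1.4.1, guided by Ensembl transcripts, and took FPKM from Cuffdiff 2.2.0. The estimated counts were deposited by the authors beside the FPKM values, and how the pools of a group were combined is not given in the sources used here. A further 4 FPKM columns (averages, maximum and minimum) and the authors' own fold change, p-value and FDR columns were not used. The members and gene lists were chosen with earlier results of these data known, and 1 erythroid marker is not reported here.

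Log2 ratios used a pseudocount of 1, which understates changes of low genes, and a minimum mean FPKM of 1. Counts were rounded for exact intervals at 95%. Genes named are the hosts, the targeted genes, U2AF2, close paralogs, the nearest genes in level and on the chromosome, and, of each list, genes past 2-fold or else the extremes and the most abundant. Cassette exons, gene spans, sequences, GC content and length came from GRCh37, the assembly of hg19, with GENCODE release 44, and 13298 genes had GC content and length. Alternatives were a pseudocount of 0.1, centring, count-based ratios, removal of the GC and length trend, other filters and other sequence windows. On simulated data, 187 of 200 genes changed 4-fold among 13626 were recovered past 2-fold, and all 144 whose mean FPKM reached 5. The simulated counts held Poisson error only, and changes as small as those of the hosts were not simulated. The software was Python 3.11.15 with pandas 2.3.3, scipy 1.17.1 and numpy 2.4.6, with matplotlib 3.10.9 for figures and pysam 0.24.0 for the genome.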

Additional observations from a re-analysis of the deposited data

How the results depend on the processing

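Of 53 values computed under alternatives, 36 stayed within their limits (the half-width of the counting interval for a ratio, the binomial interval for a base content, 1.5 times for a count of genes or exons) and 17 did not, and the cause was not tested except for fewer genes entering a stricter filter. Counts divided by column totals gave log2 ratios of -0.37 for CAST, -0.60 for EIF4A2, -0.37 for GSK3B and -0.37 for the median of the 4 hosts. Undivided counts, added after the values were seen, gave -0.091 for THYN1, -0.14 for CAST, -0.37 for EIF4A2 and -0.14 for GSK3B. After subtraction of the GC and length trend, CAST was at -0.14, EIF4A2 at -0.0020, GSK3B at 0.30 and the median at -0.069. GSK3B was above 0 by FPKM and below 0 by both count measures. Over all genes, 450 were at least 2-fold lower, against 791 with a pseudocount of 0.1, 1377 with counts divided by totals and 237 at a mean FPKM of at least 5. At least 1.5-fold lower were 1709, against 3672 with counts divided by totals and 1016 at a mean FPKM of at least 5. By counts divided by totals, 990 genes were at least 2-fold higher, against 1169 by FPKM. The limits for base content were wide, at 13.4 to 14.4 percentage points. In the 30 nt window, T at THYN1 went from 30% to 40% and at EIF4A2 from 36% to 26.7%, both counted as within limits. The number of exons with a U2AF65 motif, 3 against 2 under each alternative, stood exactly at its limit.

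No paired analysis was possible because each group has a single pooled column, and for the same reason leaving out a library was not run. The 904 to 4189 estimated counts per host and column limit the smallest ratio that counting error allows to be seen.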
